A study of Homo sapiens with 30 samples.

Results

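The 10 heat shock protein genes HSPA1A, HSPA1B, HSPA6, HSPA8, HSP90AA1, HSP90AB1, HSPH1, DNAJB1, HSPD1 and HSPE1 were followed through every deposited ChIP-Seq summit list of the series. They were chosen by symbol, with earlier results of these data known, and are 10 of the 20090 protein-coding genes of chromosomes 1 to 22 and X in GENCODE on GRCh37. The cells were MDA-MB-231, a triple-negative human breast cancer line, as parental cells and as SAP30-KO1, a line made with CRISPR/Cas9 in which the SAP30 subunit of the SIN3 complex was knocked out and knockout clones were mixed. SAP30, SIN3A and SIN3B were immunoprecipitated from parental cells only, and RNA polymerase II (Pol II), H3K4me3 and H3K9Ac from both lines, with 2 libraries in each of the 9 groups. The questions were where the SIN3 subunits sit at these promoters, and how Pol II and the 2 marks of active promoters rank there without SAP30. SAP30 itself was not precipitated from SAP30-KO1, so these lists do not check the knockout.

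Heat shock proteins are molecular chaperones: they bind unfolded or newly made proteins and help them to fold, and cancer cells often depend on them. Inducible heat shock genes are often held ready by paused Pol II, which summit lists cannot show. They are turned on by heat shock factor 1, which binds heat shock elements, short runs of the unit GAA and its complement TTC in alternating order. The constitutive genes make chaperones that every growing cell uses. The SIN3 complex carries histone deacetylases and is best known as a corepressor, and SAP30 is a small subunit of it that binds SIN3A or SIN3B.

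Each list gives the peak summits that MACS2 called in a single library, with a score that is the −log10 of the q value. Scores of different lists cannot be compared without their depth, which is unknown, so each summit was placed by its rank within its own list: the percent of summits in that list that score higher, with 0 the strongest. A gene's rank is that of its best summit within 1000 bp of a start site, and a difference in rank is SAP30-KO1 minus parental in percentage points, positive where the gene stood further down the list in SAP30-KO1. The 18 lists held between 10861 and 54622 summits. With 2 libraries against 2 the exact permutation test cannot go below p = 0.33, so groups that do not overlap are reported as such and no difference is called significant. Replicates of SIN3A and SIN3B spread widely at these genes: the median gap between both libraries was 24.5 points for SIN3A and 18.9 points for SIN3B, against 1.16 points for SAP30. For H3K4me3 the median gap was 4.21 points in parental cells and 2.15 points in SAP30-KO1. Its largest parental gap was 25.7 points, at HSPH1. Promoters known to be active in MDA-MB-231 cells (VIM, CD44, AXL and EGFR) had Pol II, H3K4me3 and H3K9Ac summits in all 4 libraries of each. Of 5 genes taken as inactive in this line, ESR1, PGR, GATA3 and CDH1 had no Pol II summit in any library, and EPCAM had one in all 4. The marks separated these sets less: H3K4me3 was called at ESR1, PGR and EPCAM in all 4 libraries and at CDH1 in 2, and H3K9Ac at EPCAM in all 4 and at ESR1 in 2.

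The promoters of 5 genes are printed because the results turn on them. HSPA1A and HSPA1B are near-copies with unlike ranks, HSPA6 had the SIN3 subunit SAP30 but no Pol II, HSP90AA1 stood among the strongest Pol II promoters, and HSPA8 had the largest H3K4me3 difference. Each line gives the 250 bases before the start site of the canonical transcript, read from the GRCh37 genome on the gene's strand, with heat shock elements of 2 or more units (GAANNTTC or TTCNNGAA) in capitals. An exon of another annotated HSPA8 transcript overlaps its window.
HSPA1A, chr6:31783070-31783319, plus strand: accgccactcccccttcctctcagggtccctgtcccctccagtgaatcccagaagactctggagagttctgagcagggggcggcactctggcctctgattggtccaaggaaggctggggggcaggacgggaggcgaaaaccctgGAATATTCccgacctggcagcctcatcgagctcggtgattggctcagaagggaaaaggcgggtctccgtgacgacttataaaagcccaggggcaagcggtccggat
HSPA1B, chr6:31795265-31795514, plus strand: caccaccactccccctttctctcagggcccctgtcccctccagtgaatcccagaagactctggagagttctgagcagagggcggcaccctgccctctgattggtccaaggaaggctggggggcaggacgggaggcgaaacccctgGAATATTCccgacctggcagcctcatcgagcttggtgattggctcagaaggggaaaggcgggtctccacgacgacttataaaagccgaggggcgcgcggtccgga
HSPA6, chr1:161494080-161494329, plus strand: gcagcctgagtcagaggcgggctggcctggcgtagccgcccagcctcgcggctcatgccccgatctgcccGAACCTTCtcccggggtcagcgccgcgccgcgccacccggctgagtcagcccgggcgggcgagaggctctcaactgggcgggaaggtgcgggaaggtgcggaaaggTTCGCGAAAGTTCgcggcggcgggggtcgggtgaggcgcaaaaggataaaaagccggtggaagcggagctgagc
HSP90AA1, chr14:102553382-102553631, minus strand: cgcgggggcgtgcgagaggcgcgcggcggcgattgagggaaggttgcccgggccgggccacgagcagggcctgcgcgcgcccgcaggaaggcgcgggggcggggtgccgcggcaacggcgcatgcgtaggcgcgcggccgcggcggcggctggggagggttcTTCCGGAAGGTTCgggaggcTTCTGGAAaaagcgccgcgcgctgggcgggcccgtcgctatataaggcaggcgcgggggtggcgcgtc
HSPA8, chr11:122932845-122933094, minus strand: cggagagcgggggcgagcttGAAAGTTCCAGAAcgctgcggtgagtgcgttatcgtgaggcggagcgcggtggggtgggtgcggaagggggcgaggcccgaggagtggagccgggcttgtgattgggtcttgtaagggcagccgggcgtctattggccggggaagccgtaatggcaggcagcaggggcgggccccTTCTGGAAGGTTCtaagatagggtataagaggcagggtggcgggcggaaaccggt

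A 2-unit element lay in this window at 8 of the 10 genes, all 6 inducible ones among them, and in 9.42% of 19801 protein-coding promoters of the same length. HSP90AB1 and HSPE1 had no match to these letters there. The HSPD1 matches, 245 to 228 bp upstream of its start site, lie between the canonical start sites of HSPD1 and HSPE1, but outside the HSPE1 window. A run of 3 units occurred at HSPA6, HSPH1, HSP90AA1, HSPA8 and HSPD1, against 0.323% of all promoters, and such runs overlap the 2-unit matches counted before. The letters TATAAA, searched on both strands, were found at HSPA1A and HSPA1B only, against 9.28% of all promoters, with their first base 30 and 29 bp before the start site. HSPA1A and HSPA1B were identical at 94.0% of these 250 bases, and each carried a single element whose first base lay 106 and 105 bp upstream.

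SAP30 had a summit in both libraries at all 10 promoters, where 61.2% of all protein-coding genes had one. SIN3B was found in both libraries at 9 genes, all but HSPA1A (51.7% of all genes), and SIN3A at 8, all but HSPA1A and HSPA6 (31.5% of all genes). All 3 SIN3 proteins were thus called in both libraries at 8 of the 10 genes, and at 30.2% of all genes. Pol II in parental cells marked 9 genes, all but HSPA6 (57.7% of all genes). H3K4me3 and H3K9Ac were called in both parental libraries at all 10 genes, against 63.8% and 61.4% of all genes.

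**Figure D1:**
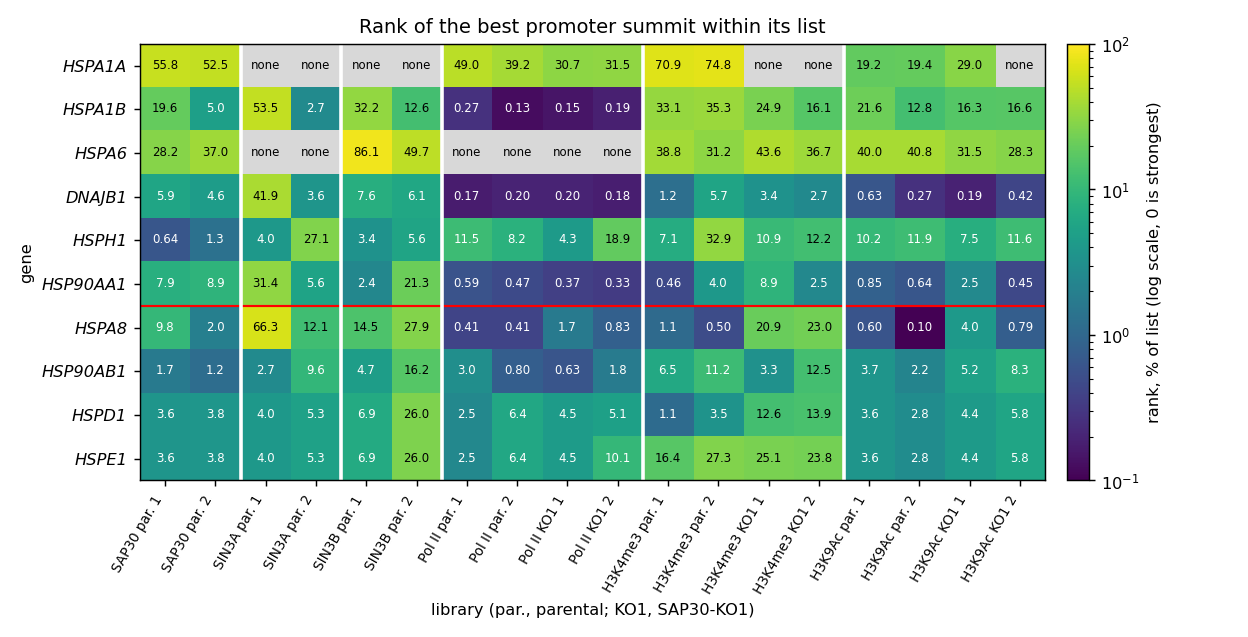
Rank of the best promoter summit of each gene (rows) in each of the 18 lists (columns), as a percent of the list on a log color scale, with 0 the strongest and gray cells where no summit was called. The red line separates the 6 inducible genes above from the 4 constitutive genes below, and HSPA1B, DNAJB1 and HSP90AA1 are below 1% in all 4 Pol II columns, HSPA8 in 3 and HSP90AB1 in 2.

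The HSP70 family holds the main ATP-driven folding chaperones of the cell. HSPA1A and HSPA1B encode the stress-inducible HSP70 and lie 12195 bp apart on the short arm of chromosome 6 (chr6:31783320-31785723 and chr6:31795515-31798031). From 201 to 1000 bp past the start site the genes were identical at 99.8% of bases, and 78.2% and 78.3% of the 50-base words that start downstream of each start site occurred more than once in the genome. Upstream of the start sites no word was repeated at either gene. How the repeated stretch was handled when reads were assigned was not tested.

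At HSPA1B, Pol II ranked 0.265% and 0.126% in the parental libraries and 0.148% and 0.185% in SAP30-KO1. Among genes with a Pol II summit these ranks are places 39 of 11728, 15 of 11936, 19 of 11450 and 26 of 11052. HSPA1B was thus among the strongest Pol II promoters in every library, and the groups overlapped (difference −0.03 points). SAP30 ranked 19.6% and 4.99% at HSPA1B, SIN3A 53.5% and 2.69%, and SIN3B 32.2% and 12.6%. Every SIN3 rank of HSPA1B was worse than its worst Pol II rank.

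HSPA1A had no SIN3A or SIN3B summit within 1000 bp, but SIN3B of replicate 2 had one 1091 bp upstream (37.8%). SAP30 ranked 55.8% and 52.5% at the HSPA1A promoter, with summits 749 and 816 bp upstream. These lie over the divergent gene HSPA1L, whose start site lies 260 bp upstream of that of HSPA1A. Pol II ranked 49.0% and 39.2% in parental cells and 30.7% and 31.5% in SAP30-KO1, so that the groups did not overlap (difference −13.0 points, exact permutation p = 0.33). The summits behind these ranks were not at the same place. In parental cells Pol II had a summit 41 and 47 bp past the start site (ranks 49.9% and 39.2%), whereas in SAP30-KO1 the only summits within 1000 bp lay 659 and 971 bp upstream. Within 500 bp of the start site, the Pol II summit of HSPA1A was therefore present in both parental libraries and absent from both SAP30-KO1 libraries. The share of all genes with such a loss in this window was not counted. Read depth is unknown, so an absent summit cannot be told from a shallow library.

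H3K4me3 at the HSPA1A promoter was weak in parental cells (70.9% and 74.8%) and was not called in either SAP30-KO1 library. HSPA1A was the only one of the 10 genes to lose its H3K4me3 promoter summit, and 1.44% of all genes with a summit in both parental libraries did so. H3K4me3 summits farther from the start site were still called in SAP30-KO1, 1364 and 1369 bp upstream (68.5% and 61.8%) and 2051 and 2070 bp downstream (58.3% and 49.8%), so with a window of 3000 bp no loss was counted. H3K9Ac ranked 19.2% and 19.4% in parental cells and 29.0% in a single SAP30-KO1 library, and was absent from the other. An H3K9Ac summit farther upstream, 1332 and 1329 bp from the start site, stood at 5.90% and 3.94% in SAP30-KO1, and its parental counterparts 1362 and 1331 bp upstream at 10.2% and 3.85%.

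HSPA1B had H3K4me3 in every library. Its ranks were 33.1% and 35.3% in parental cells and 24.9% and 16.1% in SAP30-KO1, from 34.2% ± 1.59 to 20.5% ± 6.20 (mean ± SD, n = 2). This difference of −13.7 points had no overlap between groups (exact permutation p = 0.33), and only 2.39% of all genes had a lower value. HSPA1B was the only member with a better H3K4me3 rank in SAP30-KO1 in this sense, and 11.5% of all genes were. H3K9Ac overlapped at HSPA1B (21.6% and 12.8% against 16.3% and 16.6%).

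HSPA6 encodes HSP70B′, which is made almost solely under severe stress (chr1:161494330-161496684, long arm of chromosome 1). No Pol II summit was called at HSPA6 in any of the 4 Pol II libraries. Of the 50-base words within 1000 bp downstream of its start site, 63.0% were repeated in the genome, the first 20 bp past it. The part of this in the missing Pol II summit was not tested. SAP30 was called in both of its libraries (28.2% and 37.0%), SIN3B ranked 86.1% and 49.7%, and SIN3A was absent from both. Of the 12294 genes with SAP30 in both libraries, 4.61% had no Pol II summit in any library. When H3K4me3 and H3K9Ac summits in all 4 libraries each were also asked for, 215 genes, or 1.75%, were left, HSPA6 among them. This count did not ask for SIN3A or SIN3B.

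Both histone marks were nevertheless present at HSPA6 in every library. H3K9Ac ranked 40.0% and 40.8% in parental cells and 31.5% and 28.3% in SAP30-KO1, from 40.4% ± 0.543 to 29.9% ± 2.28 (mean ± SD, n = 2). The groups did not overlap (difference −10.5 points, exact permutation p = 0.33), and 2.69% of all genes had a lower difference. HSPA6 was the only member with a better H3K9Ac rank in SAP30-KO1, and 16.4% of all genes were better in this sense. The summit itself lay 415 and 239 bp upstream in parental cells and 120 and 140 bp upstream in SAP30-KO1. Of the 50-base words around these summits 38.6% and 19.9% were repeated in the genome at the parental positions and none at the SAP30-KO1 positions, and the part of this in the difference was not tested. H3K4me3 overlapped at HSPA6 (38.8% and 31.2% against 43.6% and 36.7%). Its SAP30 summits, 179 and 176 bp upstream, fell within the most upstream of the heat shock elements shown in capitals, which spans 180 to 173 bp upstream.

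HSPA8 encodes HSC70, the constitutive HSP70 of the cytosol (chr11:122928197-122933938, long arm of chromosome 11). H3K4me3 ranked 1.08% and 0.496% at HSPA8 in parental cells, which is places 302 of 12939 and 125 of 12944 among genes. In SAP30-KO1 it ranked 20.9% and 23%, or places 4879 of 12710 and 5988 of 12746. The mean went from 0.790% ± 0.416 to 22% ± 1.52 (SD, n = 2), and the groups did not overlap (difference 21.2 points, exact permutation p = 0.33). At HSPH1 the parental H3K4me3 replicates lay farther apart than this (25.7 points). A single H3K4me3 summit stood at the promoter in every library, 202 to 326 bp past the start site. Only HSPA8 and HSPD1 had worse H3K4me3 ranks in SAP30-KO1 among the members, against 28.1% of all genes, and 99.2% of all genes had a smaller difference than HSPA8.

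The chromosome arm that carries HSPA8 stood apart as a whole. The 487 genes of 11q with H3K4me3 in all libraries had a median difference of 8.50 points, against 2.09 points over all 12527 genes, and 58.1% of them were worse in SAP30-KO1 without overlap. HSPA8 exceeded 95.1% of the genes of its own arm. For Pol II, HSPA8 ranked 0.410% and 0.413% in parental cells and 1.67% and 0.827% in SAP30-KO1, a difference of 0.84 points without overlap (exact permutation p = 0.33). It was the only member with a worse Pol II rank in this sense, where 24.2% of all genes were worse. The median Pol II difference of 11q was 9.94 points, so HSPA8 lay below the median of its arm, above 18.4% of its genes. H3K9Ac went from 0.597% and 0.0979% to 4.05% and 0.789% at HSPA8, a difference of 2.07 points, with 5.08 points as the median of the arm. Which part of each HSPA8 difference belongs to the arm was not tested.

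**Figure D2:**
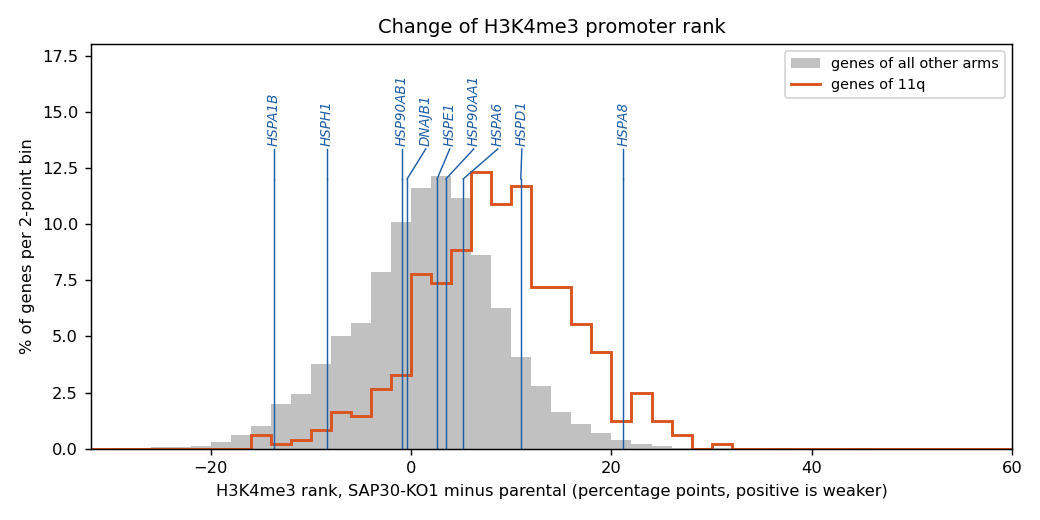
Distribution of the H3K4me3 rank difference (SAP30-KO1 minus parental, percentage points) over genes of 11q (orange line) and of all other arms (gray), as a percent of genes in each 2-point bin, with the members that had summits in all 4 libraries as blue lines. HSPA8 stands at 21.2 points, in the upper tail of its own arm, and HSPA1B at −13.7 points lies at the other end.

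HSP90 chaperones act late in folding, on kinases and hormone receptors among other clients. HSP90AA1 encodes the inducible cytosolic HSP90α (chr14:102547079-102606036) and HSP90AB1 the constitutive HSP90β (chr6:44213903-44221625). Pol II ranked 0.588% and 0.467% at HSP90AA1 in parental cells and 0.371% and 0.332% in SAP30-KO1. The groups did not overlap, but the difference was −0.18 points (exact permutation p = 0.33), equal to the median of its arm. HSP90AA1 and HSPA1A were the members with better Pol II ranks in SAP30-KO1, against 15.4% of all genes. The SAP30-KO1 ranks of HSPA1A came from summits 659 and 971 bp upstream of its start site. At HSP90AB1 Pol II overlapped (3.03% and 0.796% against 0.625% and 1.78%).

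The HSP90AA1 record has a further start site 52.6 kb upstream, within 1000 bp of a start site of WDR20. Several HSP90AA1 ranks came from that site: at the canonical start site alone, SIN3B ranked 14.5% and 65.2% in place of 2.44% and 21.3%, and H3K4me3 in the parental libraries 11.2% and 3.97% in place of 0.457% and 3.97%. Neither H3K4me3 nor H3K9Ac separated the groups at HSP90AA1, whichever start site was used. Pol II did so at the canonical start site, but overlapped at the 5-prime end of the gene record (difference −8.28 points). HSP90AB1 kept SAP30 ranks of 1.66% and 1.18%, among the best of the members. Its H3K9Ac ranks were 3.71% and 2.24% in parental cells and 5.17% and 8.29% in SAP30-KO1, a difference of 3.75 points without overlap (exact permutation p = 0.33). The best summit lay 418 and 396 bp upstream of the canonical start site in parental cells and 202 and 334 bp downstream in SAP30-KO1, so the ranks compare summits on opposite sides of it.

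HSPH1 encodes HSP110, a nucleotide exchange factor that resets HSP70 (chr13:31709110-31736525), and DNAJB1 encodes HSP40, the cochaperone that hands clients to HSP70 (chr19:14625581-14671203). HSPH1 had the strongest SAP30 summits of the 10 genes in one library and close to the strongest in the other (0.637% and 1.32%), 72 bp upstream of the start site in both. Pol II at HSPH1 ranked 11.5% and 8.20% in parental cells and 4.29% and 18.9% in SAP30-KO1. The spread between the SAP30-KO1 libraries exceeded the difference between groups. H3K4me3 at HSPH1 ranked 7.13% and 32.9% in parental cells and 10.9% and 12.2% in SAP30-KO1, with overlap.

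DNAJB1 was, with HSPA1B, the strongest Pol II promoter of the set. It ranked 0.169% and 0.200% in parental cells and 0.199% and 0.176% in SAP30-KO1, which is places 23 of 11728, 29 of 11936, 28 of 11450 and 25 of 11052. H3K9Ac ranked 0.633% and 0.267% in parental cells and 0.193% and 0.421% in SAP30-KO1, at places 368, 154, 100 and 226 among genes, and neither mark nor Pol II separated the groups. SAP30 ranked 5.86% and 4.55% and SIN3B 7.57% and 6.09% at DNAJB1. Of its 18 start sites 13 lie more than 1000 bp from the canonical site, some of them within 1000 bp of a start site of TECR, but only the SIN3B rank of replicate 2 came from there (7.19% at the canonical site).

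HSPD1 and HSPE1 encode HSP60 and HSP10, the chaperonin of the mitochondrial matrix and its lid (chr2:198351308-198381461 and chr2:198364864-198368173). They are transcribed away from each other, from canonical start sites 539 bp apart, and share their best summit in 13 of the 18 lists, so they are not independent of each other. SAP30 ranked 3.63% and 3.78% there and SIN3A 3.95% and 5.25%. The SIN3A ranks were the closest replicates of that target among the members. Pol II ranked 2.55% and 6.36% at HSPE1 in parental cells and 4.47% and 10.1% in SAP30-KO1, with overlap.

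H3K9Ac at the shared promoter ranked 3.63% and 2.84% in parental cells and 4.37% and 5.80% in SAP30-KO1, a difference of 1.85 points without overlap (exact permutation p = 0.33). H3K4me3 at HSPE1 overlapped (16.4% and 27.3% against 25.1% and 23.8%). HSPD1 was called worse for H3K4me3, from 1.13% and 3.49% to 12.6% and 13.9% (difference 10.9 points, exact permutation p = 0.33), but this summit belongs to a further HSPD1 start site 16.9 kb upstream, where MOB4 also starts. At its canonical start site the HSPD1 values were those of HSPE1, with a difference of 2.59 points and overlap.

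**Figure D3:**
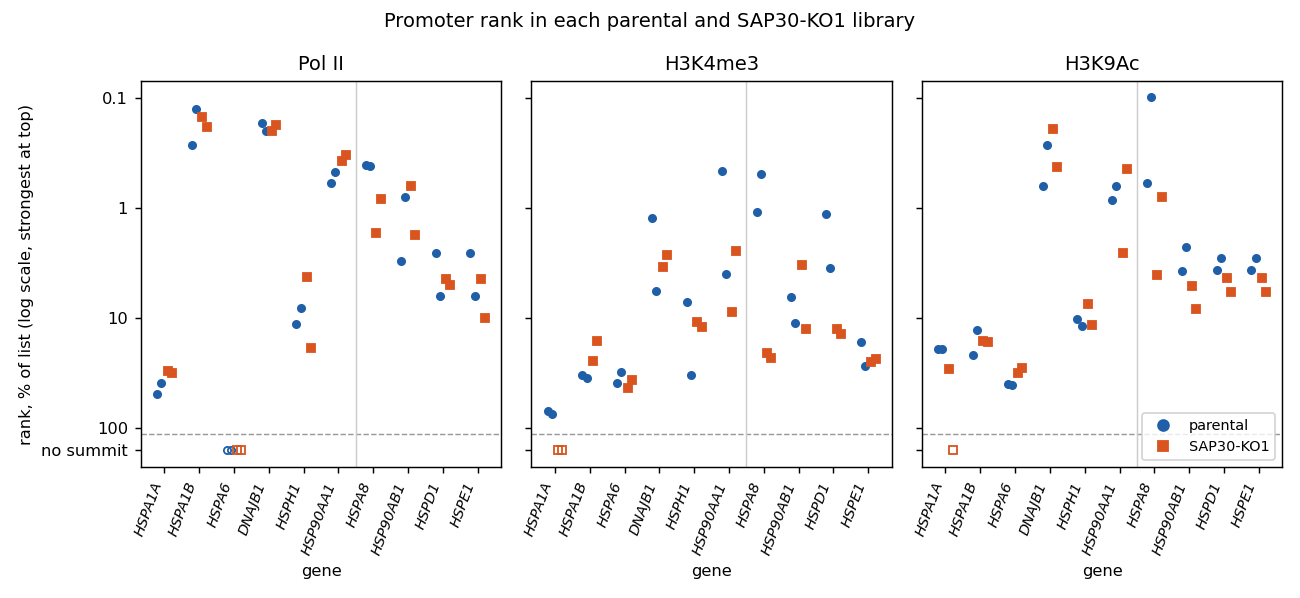
Rank of each gene's best promoter summit in the 2 parental (blue circles) and 2 SAP30-KO1 libraries (orange squares) for Pol II, H3K4me3 and H3K9Ac, as a percent of the list on an inverted log axis, with open symbols where no summit was called. HSPA8 stands at 1.08% and 0.496% for H3K4me3 in parental cells and at 20.9% and 23% in SAP30-KO1, the H3K4me3 summit of HSPA1A is absent in SAP30-KO1, and HSPA6 has no Pol II summit in any library.

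For H3K9Ac, 4 of the 9 members with summits in all libraries had worse ranks in SAP30-KO1 (HSPA8, HSP90AB1, HSPD1 and HSPE1), against 22.1% of all genes. These were the 4 constitutive genes, and none of the 5 inducible genes tested was among them. The sixth inducible gene, HSPA1A, was not tested because a SAP30-KO1 library had no summit there, and with that summit placed at 100% it too stood lower in SAP30-KO1 without overlap. With a 500 bp window, and with the 5-prime end of the gene record alone, 2 members were worse. Against the median of its arm the HSPA8 difference was −3.01 points, and with the summit nearest the start site that of HSPE1 was −0.52 points. The shared promoter counts as 2 of the 4. The median H3K9Ac difference was 1.96 points over the constitutive and −0.72 points over the inducible genes, beside 0.31 points over all 12044 genes. For H3K4me3 the medians were 6.77 and −0.40 points, beside 2.09 over all genes, and for Pol II 0.58 and −0.03 points, beside 1.48. The constitutive median of H3K4me3 lies midway between the values of HSPE1 and HSPD1, and the latter comes from the summit at MOB4. No Pol II promoter summit of a member was lost, where 2.33% of all genes lost theirs, and no H3K9Ac summit was lost from both libraries, where 0.689% of all genes lost theirs.

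In parental cells the constitutive promoters held the better median ranks for most targets. With the 5-prime end of the gene record alone, the order turned round for SAP30 (−19.1 points, inducible minus constitutive) and H3K4me3 (−15.4 points). With start sites taken as elsewhere and a missing summit placed at 100%, the median H3K9Ac rank was 13.52% ± 1.69 over the inducible and 3.09% ± 0.771 over the constitutive genes (mean ± SD of 2 libraries). For H3K4me3 these medians were 26.1% ± 8.41 and 5.58% ± 2.53, for SAP30 10.3% ± 4.80 and 3.25% ± 0.538, and for SIN3A 32.0% ± 22.2 and 5.68% ± 2.45. SIN3B gave 18.4% ± 2.07 and 16.4% ± 13.53, with opposite orders in the 2 libraries. For Pol II the medians were 5.19% ± 1.21 and 3.06% ± 0.729. That order turned round when HSPA6 was left out for want of a summit, which gave −2.53 points for inducible minus constitutive in place of 2.13. Counting both lines, the constitutive median was the better one in 15 of the 18 lists.

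The inducible class spanned the whole range of Pol II ranks. HSPA1B, DNAJB1 and HSP90AA1 were in the best 1% of summits in all 4 Pol II lists, HSPA1A stood between 30.7% and 49.0%, and HSPA6 had no summit. Of the 10 genes, 4, 5, 4 and 4 were in the best 1% of each Pol II list, where 0.941% to 1.09% of all genes were. In the SAP30 lists 1 and 0 members were in the best 1%, where 2.08% and 2.03% of all genes were. None was in the best 1% of the SIN3A lists (0.632% and 0.657% of all genes) or the SIN3B lists (1.88% and 1.55%).

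Pol II summits of the members lay close to the start of transcription. Over 36 values (gene and library), the median was 29.5 bp past the canonical start site with quartiles of 4 and 38 bp, and 75% lay from 0 to 100 bp past it, against 50.9% over all genes. H3K4me3 summits had a median of 257 bp and H3K9Ac summits of 199 bp past the start site, beside 202 and 227 bp over all genes. SAP30 summits had a median of 32.5 bp, but with quartiles of −177 and 364 bp, wider than those of all genes (−39 and 183 bp). The distance from the SAP30 summit to the centre of the nearest 2-unit element was at most 2.50 bp at HSPA6 and 16.5 bp at HSPH1 in both libraries, and at least 120.5 bp at the other 6 genes that had an element. A SIN3B summit lay 5.5 bp from an element at HSP90AA1 and 52.5 bp in the other library.

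**Figure D4:**
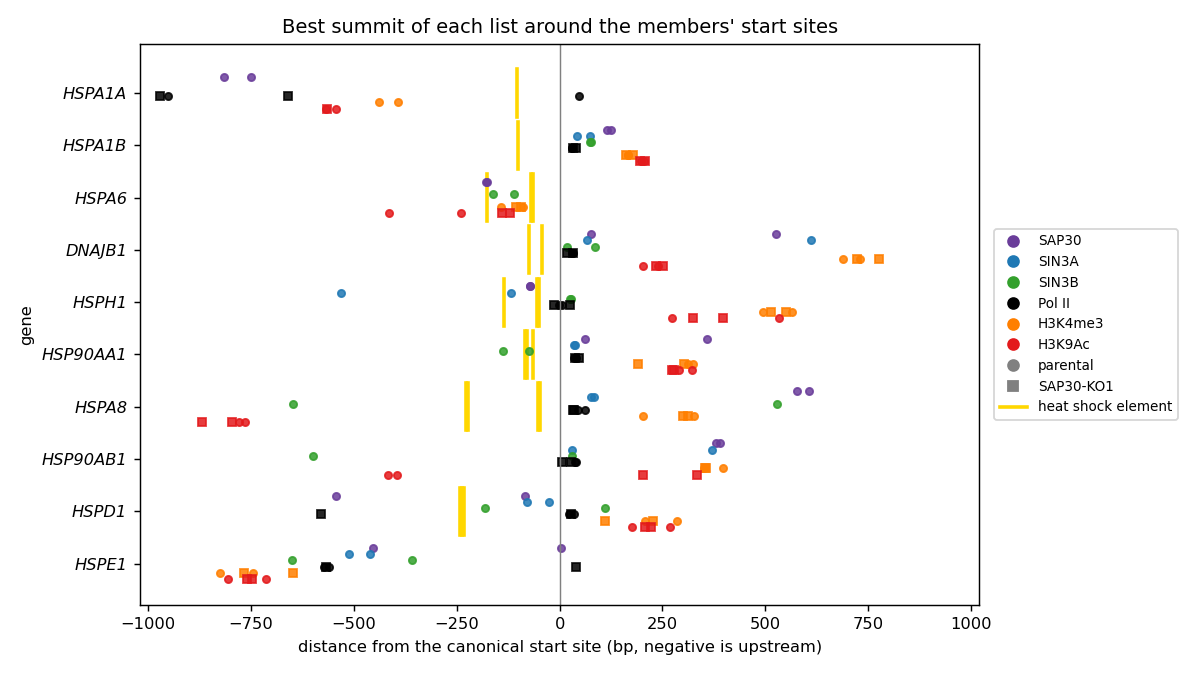
Position of the best summit around the canonical start site for each gene (rows), in bp with negative values upstream, for each target (color) in parental (circles) and SAP30-KO1 libraries (squares), with 2-unit heat shock elements in yellow. Pol II (black) lies just past the start site at HSPA1B, DNAJB1, HSP90AA1, HSPA8 and HSP90AB1 and within 26 bp of it on either side at HSPH1, and the SAP30 summits of HSPA6 lie on its upstream element.

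Gene bodies held few summits. With the 1000 bp around every start site left out, the 10 gene records together had 6 SAP30 summits in each library, 1 and 0 of SIN3A, 6 and 5 of SIN3B, and 2 and 3 of Pol II in parental cells against 0 and 1 in SAP30-KO1. H3K4me3 had 5 and 2 in parental cells and 3 and 6 in SAP30-KO1, and H3K9Ac 13 and 10 against 10 and 13. Many H3K9Ac body summits (7 and 6 in parental cells, 5 and 7 in SAP30-KO1) lay in the long DNAJB1 record, upstream of the canonical transcript with few exceptions. Inside canonical transcripts Pol II had 1 body summit in each parental library and none in SAP30-KO1. Both lay within 1000 bp of a start site of another gene and were weak (89.7% at HSP90AB1 and 96.1% at HSPA8). HSPA6 had no body summit of any target, and the part of its repeated sequence in this was not tested.

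The pathway around these genes was read from 56 further genes, heat shock factors, other HSP70 and HSP40 proteins, chaperonin subunits and cochaperones, of which 49 had Pol II and H3K9Ac and 47 had H3K4me3 in all 4 libraries. SAP30 was called in both libraries at 83.9% of them, SIN3A at 62.5% and SIN3B at 82.1%. For Pol II 10 were better and 12 worse in SAP30-KO1, for H3K4me3 3 and 8, and for H3K9Ac 5 and 12, beside 15.4% better and 24.2% worse, 11.5% and 28.1%, and 16.4% and 22.1% of all genes. HSPA1L, the divergent neighbour of HSPA1A, had no H3K4me3 summit in its window in SAP30-KO1, and none lost Pol II or H3K9Ac. It shares its Pol II summits and one parental H3K4me3 summit (70.9%) with HSPA1A, so it is not a separate case, and the SAP30-KO1 summits 1364 and 1369 bp upstream of HSPA1A lay just outside its window, as did a parental one at 1373 bp. Their median differences were 1.62, 1.15 and 0.58 points, beside 1.48, 2.09 and 0.31 over all genes.

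The largest Pol II differences among them were at CCT3, a subunit of the cytosolic chaperonin (14.5% and 6.99% against 28.8% and 59.3%), at HSF2, a heat shock factor (34.0% and 31.8% against 62.9% and 57.6%), and at ST13, an HSP70 cochaperone, in the weaker direction. DNAJA3, HSPA14 and DNAJB5 had the largest differences in the stronger direction, from −20.6 to −13.8 points. For H3K4me3 the chaperonin subunits CCT8 and CCT2 were weaker by 22.2 and 18.7 points, and CHORDC1, which like HSPA8 lies on 11q, by 18.7 points. The CHORDC1 ranks were 0.411% and 19.3% in parental cells and 34.0% and 23.2% in SAP30-KO1. Its parental replicates thus lay about as far apart as the group means, and the median difference of 11q was 8.50 points. DNAJB9, BAG3 and CCT5 stood higher in SAP30-KO1 (−12.6 to −1.22 points). For H3K9Ac, HSPA9, the mitochondrial HSP70, CCT7 and HSPB6 stood higher (−5.17 to −3.77 points) and CHORDC1, DNAJA2 and CDC37 lower (10.2 to 6.30 points). HSPBP1, HSF2 and HSPA2 were the chaperone genes most like HSPA6, but none was close: with a missing summit at 100%, their ranks differed from those of HSPA6 by a mean of 23.7, 24.3 and 26.8 points over the 18 lists.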

How the data were processed

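The authors aligned ChIP-Seq reads to hg19 (GRCh37) and called peaks separately in each library with MACS2 2.1.0 (also named in the submitters' processing notes are Bowtie2 2.3.3.1, Picard and FastQC 0.11.2). The deposited lists give 1-bp summits and the −log10 q value of each. Lists of 18 of the 30 samples were used, and the input and total H3 libraries were not analysed here. Scores scale with depth, which is unknown, so only ranks within a list were compared. Start sites were those of basic transcripts in GENCODE 44 lifted to GRCh37. The members, classes and chaperone list were chosen with earlier results of these data known. Named genes were all 10 members, for each mark the 3 other chaperone genes with the largest difference among those not overlapping in each direction, and the 3 closest to HSPA6. Nothing states that the 2 libraries of a group came from separate cultures, so their spread may be technical. Differences of 2 against 2 libraries were tested with the two-sided exact permutation test. The lookups were tested on simulated lists. Genes were assigned to a chromosome arm by the side of the centromere gap on which they start. Alternatives were other windows, start sites, list lengths and rank bases, the nearest summit, each library left out, and other member sets. Same-numbered libraries did not deviate together (the correlation of their deviations over genes was 0.01, −0.02 and −0.01 in the order Pol II, H3K4me3, H3K9Ac), so numbers were not used as pairs. Python 3.11.15, NumPy 2.4.6, SciPy 1.17.1, Biopython 1.88, Numba 0.67.0 and matplotlib 3.10.9 were used.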

Additional observations from a re-analysis of the deposited data

How the results depend on the processing

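Of the 318 recomputed counts and class differences, 233 stayed within 1.5 times the reported count or within the replicate SD. Of the 11 non-overlapping member differences, 8 were never reversed in sign where they could be computed. Among these 8, the Pol II difference of HSP90AA1 was 0 against the median of its arm. That of HSPA1A could not be computed with a 500 bp window, where its SAP30-KO1 summits were absent. Each group held 2 libraries and read depth is unknown, so absent summits cannot be told from shallow libraries, and no difference could reach significance.

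Using the 5-prime end of the gene record alone, H3K4me3 was called at 6 parental and 5 SAP30-KO1 genes, Pol II ranks were better at 1 gene and worse at 0, H3K4me3 ranks were worse at 1, H3K9Ac ranks were worse at 2, and 1 gene lost H3K9Ac. This choice drops the canonical start site of several members. A 500 bp window left 1 gene with a better Pol II rank, 1 with a lost Pol II summit (HSPA1A) and 2 with worse H3K9Ac ranks. Shares of all genes were not counted with this window. The H3K4me3 loss at HSPA1A was 0 with a 3000 bp window and 0 in the better-ranked 50% of each list. H3K4me3 ranks were worse at 1 gene (HSPA8) with the nearest summit and with the canonical start site. Without HSPA1B and HSPE1, 0 genes had a better H3K4me3 rank. With the replicate number as a block, which the pairing check gives no ground for, Pol II ranks were worse at 2 genes and H3K9Ac ranks better at 2, and no other count moved past 1.5 times. Against the median of its arm, HSPA8 gave −9.10 points for Pol II and −3.01 for H3K9Ac, and with the nearest summit HSPE1 gave −0.52 points for H3K9Ac. These added comparisons (canonical start, arm median, losses) were chosen after seeing the data.

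For inducible minus constitutive median ranks, the 5-prime end gave −19.1 points for SAP30, 28.5 for SIN3B, 22.1 for H3K9Ac, −15.4 for H3K4me3 and 29.2 for Pol II. The better-ranked 50% gave 14.2 for SAP30, 20.9 for H3K9Ac, 41.0 for H3K4me3 and 4.25 for Pol II. Ranks among genes gave 20.4 for SAP30, 39.8 for H3K9Ac, 39.3 for H3K4me3 and 4.16 for Pol II. With HSP90AA1 and HSPH1 as constitutive the differences were 19.2 for SAP30, 58.5 for SIN3A, 30.4 for SIN3B, 15.1 for H3K9Ac, 28.9 for H3K4me3 and 19.1 for Pol II. The nearest summit gave 27.5 for SIN3B, 16.5 for H3K9Ac, 11.7 for H3K4me3 and 11.7 for Pol II, and the canonical start 11.7 for H3K4me3. Windows of 500 bp gave 28.4 for H3K4me3 and 16.8 for H3K9Ac, and 3000 bp gave 2.93 for H3K9Ac. Without HSPA1B and HSPE1 the values were 8.18 for Pol II and 8.10 for H3K9Ac, and Pol II gave −2.53 over genes with a summit. The cause of these shifts was not tested.

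Whole gene records held a mean of 18 SAP30, 21 SIN3A, 26 SIN3B, 18 parental and 18.5 SAP30-KO1 Pol II, 16.5 and 17 H3K4me3, and 26 and 25.5 H3K9Ac summits, since promoters then count. Extending bodies by 3000 bp gave 10.5 and 5 Pol II summits, from 2.5 and 0.5. Canonical transcripts alone held 3 SAP30, 0 SIN3A, 3.5 SIN3B, 1 and 0 Pol II, and 4.5 and 5 H3K9Ac summits.

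Leaving out each library in turn, which makes overlap less likely by construction, gave 2 to 4 better and 1 to 4 worse Pol II ranks, 1 to 4 and 3 to 6 for H3K4me3, 2 to 3 and 4 to 6 for H3K9Ac, and 0 to 1 lost H3K9Ac summits. Class differences ranged from 4.08 to 10.1 for SAP30, 8.93 to 43.7 for SIN3A, −9.04 to 13.0 for SIN3B, 9.78 to 11.1 for H3K9Ac, 16.3 to 24.6 for H3K4me3 and 0.755 to 3.496 for Pol II. Body summits ranged from 0 to 1 for SIN3A, 2 to 3 and 0 to 1 for Pol II, 2 to 5 and 3 to 6 for H3K4me3, and 10 to 13 for H3K9Ac.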

Other observations

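HSF1, which encodes heat shock factor 1 itself, was looked at by name after its values had been seen. Pol II ranked 2.103% and 2.732% at HSF1 in parental cells and 3.49% and 3.92% in SAP30-KO1, a difference of 1.29 points without overlap (exact permutation p = 0.33), where the median gene of its chromosome arm differed by 0.63 points. H3K9Ac placed HSF1 near the top of every list (0.461% and 0.261% against 0.332% and 0.226%). H3K4me3 ranked 7.25% and 7.18% in parental cells and 9.76% and 0.857% in SAP30-KO1, with overlap. HSPA5, which encodes the HSP70 of the endoplasmic reticulum, overlapped between the lines in Pol II and both marks.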
